A study of Mus musculus with 21 samples.

Results

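Myosin heavy chains are the motor subunits of the myosins that pull on actin. The 9 conventional heavy chain genes examined here, Myh3, Myh6, Myh7, Myh7b, Myh8, Myh9, Myh10, Myh11 and Myh14, were chosen by name from the 24509 gene rows of the deposited expression tables as the family members to be followed. They were followed in hearts of CD1 mouse embryos in which both copies of Chd4 were recombined (Chd4 Δflox/Δflox, called null below) and in hearts of embryos with the intact floxed alleles (Chd4 flox/flox, called flox below). CHD4 is the nucleosome-remodelling ATPase of the NuRD complex, which also carries histone deacetylases. Polyadenylated RNA was sequenced from 5 null and 5 flox hearts at embryonic day (E) 9.5 and from 3 null and 3 flox hearts at E10.5. Both groups carry the floxed allele, and the labels do not name the recombinase line or the cells in which it acts. Chromatin immunoprecipitation of CHD4 was done on hearts of wild-type embryos at E10.0. The title of the series asks how CHD4 and NuRD act on the formation of the cardiac sarcomere, of which heavy chains form the thick filament.

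Each heavy chain joins a second copy and 2 pairs of light chains in a hexamer, and the kind of heavy chain sets the speed of the motor. Myh6 (alpha, fast) and Myh7 (beta, slow) are the main chains of cardiac muscle and lie side by side in the genome, and Myh7b is an older relative expressed at low level in heart and slow muscle. Myh11 is the smooth muscle chain, Myh9, Myh10 and Myh14 are the non-muscle chains IIA, IIB and IIC that act in cell shape and division, and Myh3 and Myh8 are the embryonic and perinatal chains of skeletal muscle. In the embryonic mouse heart Myh7 is typical of the ventricles and Myh6 of the atria and of the whole early heart tube, and the smooth muscle chain belongs to the vessel walls that form later.

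The 3 muscle chains at the centre of the cardiac set each hold a microRNA in an intron, and all 3 mature sequences are shown because they tie the genes into one family. The sequences are RefSeq's on GRCm38.p6, with the seed, bases 2 to 8, in capitals.
mmu-miR-208a-3p, in Myh6 on chromosome 14 (chr14:54949072-54949093, minus strand): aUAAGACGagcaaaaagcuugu
mmu-miR-208b-3p, in Myh7 on chromosome 14 (chr14:54975710-54975731, minus strand): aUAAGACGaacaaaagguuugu
mmu-miR-499-5p, in Myh7b on chromosome 2 (chr2:155622893-155622913, plus strand): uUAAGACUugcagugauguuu
The seeds of the first pair are identical, and that of mmu-miR-499-5p differs from them in its last letter.

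The promoters of the neighbouring pair Myh6 and Myh7 are shown because Myh6 was called lower at E9.5 and Myh7 was not, and because CHD4 peaks lie at both starts. Each is the 250 bases before a start that RefSeq gives on GRCm38.p6, read on the minus strand. For Myh7 the table gives 2 starts, and the window shown is that of the upstream one. Capitals mark the MCAT element (CATTCC, on the opposite strand in both) and the E-box (CANNTG).
Myh6 promoter (chr14:54966608-54966857, minus strand): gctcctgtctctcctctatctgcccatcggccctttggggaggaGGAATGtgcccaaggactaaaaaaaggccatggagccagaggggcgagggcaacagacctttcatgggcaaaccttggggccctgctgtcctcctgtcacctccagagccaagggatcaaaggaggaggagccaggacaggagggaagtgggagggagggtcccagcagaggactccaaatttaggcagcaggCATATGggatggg
Myh7 promoter (chr14:54994627-54994876, minus strand): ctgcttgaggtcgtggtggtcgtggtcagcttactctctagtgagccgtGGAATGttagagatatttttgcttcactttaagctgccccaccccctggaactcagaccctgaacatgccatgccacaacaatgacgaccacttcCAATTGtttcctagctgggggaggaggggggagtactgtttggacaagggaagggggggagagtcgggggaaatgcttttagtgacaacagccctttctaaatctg
The MCAT element, the core that TEAD factors recognise, began 206 bases before the start of Myh6 and 201 bases before that of Myh7. The window of the other Myh7 start (chr14:54994550-54994799) held no MCAT element and 2 E-boxes, so the shared element depends on the choice of start. It was found in 12.6% of 27018 RefSeq promoters of this length and the E-box in 66.1%, searching both strands. Among the other heavy chain genes with a promoter entry only Myh10 held an MCAT element. No match to a CArG box, which 1.4% of promoters held, or to a MEF2 site, which 0.518% held, was found in these windows, where CArG box and MEF2 site are 10-letter patterns with free A or T positions in the middle.

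The libraries held 17.1 to 20.1 M reads in null and 19.6 to 23.5 M in flox hearts at E9.5, and 18 to 18.9 M in null and 17.3 to 18 M in flox hearts at E10.5 (M, 1000000 reads). Levels are RPKM, reads per kilobase of gene and per 1000000 reads, so genes of different length can be compared. Differences are on the scale of log2(RPKM + 0.5), null minus flox, from limma, and called means a p below 0.05 after Benjamini-Hochberg adjustment over every gene that averaged 0.5 RPKM or more. Chd4 averaged 45.7 ± 3.08 RPKM in null and 92.4 ± 1.33 RPKM in flox hearts at E9.5 (SD, n = 5 each), a log2 difference of -1.01 (limma adjusted p 1.69e-06). At E10.5 Chd4 averaged 52.7 ± 4.61 RPKM in null and 77.6 ± 12.3 RPKM in flox hearts (SD, n = 3 each), with no overlap, but the difference of -0.55 missed the threshold (limma adjusted p 0.116). The authors' deposited table of that stage lists Chd4 at 0.50 for control over null with an adjusted p of 0.0220. The hearts expressed the 8 cardiomyocyte markers strongly, with summed levels of 10510 to 13550 RPKM in null and 13190 to 15910 RPKM in flox hearts at E9.5. Of these markers 2 were called lower in null hearts at E9.5, Actc1 (-0.35) and Actn2 (-0.51), and none higher. Their median log2 difference was -0.28, beside -0.04 over all genes. Their mean log2 level was 8.40 to 8.68 in null and 8.71 to 8.93 in flox hearts, with no overlap. None of the 8 was called at E10.5. Erythroid RNA moved with genotype: all 8 erythroid markers were called higher in null hearts at E9.5, with summed levels of 27760 to 75010 RPKM in null and 10960 to 27970 RPKM in flox hearts. At E10.5 the third null library stood apart, with the highest erythroid sum (141700 RPKM) of that stage, and the values of Myh10, Myh14 and Myh3, which rest on it, are given with and without it.

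The order of levels set the frame for every comparison. In null hearts at E9.5 the order was Myh7 (447 RPKM), Myh6 (290), Myh10 (85.5), Myh9 (53.9), Myh11 (9.08), Myh7b (6.59), Myh14 (0.159), Myh3 (0.0553) and Myh8 (0.00497). In flox hearts at E9.5 it was Myh6 (491 RPKM), Myh7 (423), Myh10 (84.2), Myh9 (50.4), Myh7b (7.48), Myh11 (1.29), Myh14 (0.247), Myh3 (0.0194) and Myh8 (0.00306). Myh7 stood above Myh6 in all 5 null hearts with no overlap of the ranges, whereas in flox hearts Myh6 and Myh7 overlapped and Myh6 was the higher in 4 of 5. Myh11 and Myh7b also traded places: Myh11 was above Myh7b in all 5 null hearts, with ranges that overlapped, and below it in all 5 flox hearts, with ranges that did not. At E10.5 the mean order from Myh7 down to Myh9 was the same in null and flox hearts, with Myh6 and Myh7 overlapping in flox hearts and Myh10 and Myh9 overlapping in null hearts, and the exchange of Myh11 and Myh7b was seen again with no overlap in either group. The lowest chains, Myh14, Myh3 and Myh8, had a mean under 0.5 RPKM over the libraries of each stage, so 6 of the 9 genes were tested.

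**Figure D1:**
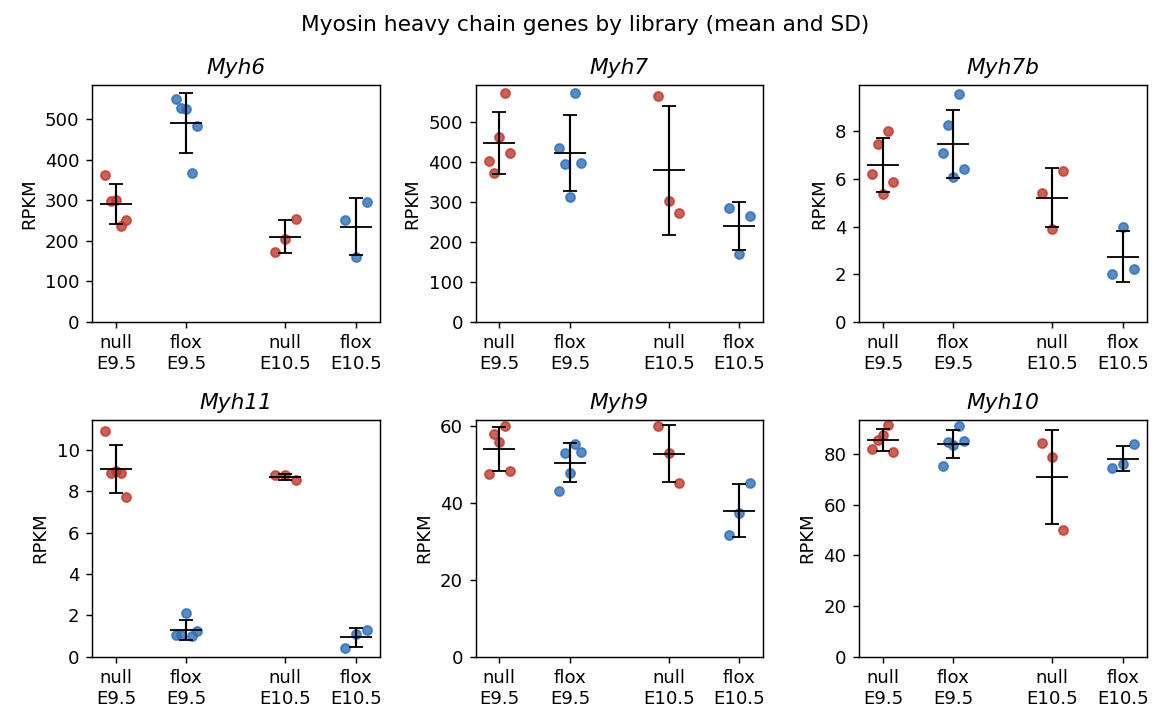
RPKM of the 6 tested heavy chain genes in each null (red) and flox (blue) heart at E9.5 and E10.5, with the mean and SD of each group as bars. Myh11 sits at 7.72 to 10.9 RPKM in null and 1.02 to 2.11 RPKM in flox hearts at E9.5, and Myh6 is the other gene whose groups do not overlap at that stage. The share of all tested genes without overlap was not counted.

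At E9.5, 2 of the 6 tested chains were called, Myh11 higher and Myh6 lower in null hearts, in a comparison that called 17.2% of 13643 genes. Of all tested genes 937 (6.87%) were called higher and 1405 (10.3%) lower, and with libraries scaled to a common median 1134 were higher and 1027 lower. The smooth muscle chain Myh11 had 10.9, 8.89, 8.98, 8.89 and 7.72 RPKM in the null hearts, against 1.05, 1.03, 2.11, 1.02 and 1.23 RPKM in the flox hearts. Each null heart was far above each flox heart, and the third flox heart was the highest of its group. The means were 9.08 ± 1.16 RPKM in null and 1.29 ± 0.467 RPKM in flox hearts (SD, n = 5 each), a ratio of 7.06 and a log2 difference of 2.45 (SE 0.153, limma adjusted p 5.47e-06). These values rested on 999 to 1420 reads per null and 136 to 273 reads per flox library. With the erythroid level as a covariate the difference was 2.16 and still called (limma adjusted p 0.00587).

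No smooth muscle marker was called higher alongside Myh11 at E9.5. Of 10 tested, 2 were called lower and 8 were not called, with a median log2 difference of -0.09 beside -0.04 over all genes. Their summed level was 2035 to 2609 RPKM in null and 1967 to 2647 RPKM in flox hearts, and none of the 10 was at 0. The pair that fell was Myocd, a coactivator of smooth and cardiac muscle genes, and Synpo2, an actin-bundling protein, both named after their values were seen. Myocd averaged 24.2 ± 5.28 RPKM in null and 31.8 ± 3.00 RPKM in flox hearts (SD, n = 5 each; limma log2 difference -0.41, adjusted p 0.0481). Acta2, the smooth muscle actin that early cardiomyocytes also express, averaged 1206 ± 159 RPKM in null and 1304 ± 182 RPKM in flox hearts (SD, n = 5 each; limma log2 difference -0.11, adjusted p 0.550). Actg2, the marker called higher at E10.5, averaged 3.88 ± 1.03 RPKM in null and 2.47 ± 0.933 RPKM in flox hearts at E9.5 (SD, n = 5 each; limma log2 difference 0.58, adjusted p 0.0765).

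The fast cardiac chain Myh6 had 362, 298, 301, 236 and 251.9 RPKM in the null hearts at E9.5, against 551, 528, 526, 367 and 484 RPKM in the flox hearts. The groups did not overlap, but the highest null heart and the lowest flox heart lay side by side. The means were 290 ± 49.4 RPKM in null and 491 ± 73.6 RPKM in flox hearts (SD, n = 5 each), a log2 difference of -0.76 (SE 0.135, limma adjusted p 0.00399). The call was lost with 2 covariates: with the erythroid level as a covariate the difference was -0.53 (SE 0.235, limma adjusted p 0.522), and with the cardiomyocyte marker level it was -0.62 (SE 0.261, limma adjusted p 0.584). Over all genes the 2342 calls became 70 with the erythroid level and 50 with the cardiomyocyte marker level, so the loss was not particular to Myh6. Both levels differ between the groups, and in whole hearts fewer cells of a type and less RNA per cell cannot be told apart.

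The slow cardiac chain Myh7 had 403, 373, 462, 573 and 423 RPKM in null hearts at E9.5, against 435, 394, 313, 573 and 397 RPKM in flox hearts. The groups overlapped over most of their range, and the log2 difference was 0.09 (SE 0.155, limma adjusted p 0.718). Myh7b, the low-level slow chain that hosts miR-499, ranged over 5.36 to 8.03 RPKM in null and 6.07 to 9.55 RPKM in flox hearts, a difference of -0.17 (SE 0.137, limma adjusted p 0.434). Between hearts of the same replicate number Myh7b was always lower in the null heart. With the replicate number as a block its limma adjusted p was 0.0523, but the labels do not say that the numbers pair the hearts. Neither chain passed the test, so the fall within the cardiac pair was seen for Myh6 and not called for Myh7.

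The non-muscle chains overlapped between the groups at E9.5, and the 2 that were tested did not pass. Myh9 (IIA) averaged 53.9 ± 5.65 RPKM in null and 50.4 ± 5.01 RPKM in flox hearts, and Myh10 (IIB) averaged 85.5 ± 4.36 RPKM in null and 84.2 ± 5.63 RPKM in flox hearts (SD, n = 5 each). Their log2 differences were 0.09 (SE 0.0878, limma adjusted p 0.493) and 0.02 (SE 0.0583, limma adjusted p 0.810). Myh14 (IIC), below the filter, had 8 to 35 reads in null and 24 to 47 reads in flox libraries.

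Among the skeletal chains, Myh3 had 4, 3, 13, 5 and 7 reads in the null libraries at E9.5, against 1, 2, 3, 4 and 2 reads in the flox libraries. The read totals were 32 in null and 12 in flox hearts, and the RPKM means, 0.0553 in null and 0.0194 in flox hearts, differed in an exact permutation test (two-sided, n = 5 each, p 0.0159, not adjusted). In the limma fit with no filter on low values Myh3 was not called (adjusted p 0.159). Myh8 had at most 2 reads in any library of either stage. The 8 markers of skeletal muscle precursors summed to 0.238 to 0.362 RPKM in null and 0.222 to 0.480 RPKM in flox hearts, with 2 of the 8 at 0 in every null and 5 of the 8 at 0 in every flox heart. The 5 other Myh rows of the tables, Myh1, Myh2, Myh4, Myh13 and Myh15, had at most 8 reads in any library.

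At E10.5, 1 of the 6 tested chains was called, Myh11, higher in null hearts, in a comparison that called 2.07% of 14100 genes, 1.77% as higher and 0.305% as lower. Myh11 had 8.77, 8.80 and 8.53 RPKM in the null hearts, against 0.413, 1.11 and 1.28 RPKM in the flox hearts. The null hearts lay within a narrow band far above all flox hearts. The means were 8.70 ± 0.145 RPKM in null and 0.935 ± 0.459 RPKM in flox hearts (SD, n = 3 each), a log2 difference of 2.74 (SE 0.260, limma adjusted p 0.00306). Without the third null library and the flox library of most erythroid RNA it was 2.87 (limma adjusted p 0.0410). Here 1 of 10 smooth muscle markers was called higher, Actg2, the enteric smooth muscle actin, named after its values were seen. Actg2 averaged 9.25 ± 1.87 RPKM in null and 2.90 ± 1.22 RPKM in flox hearts (SD, n = 3 each; limma log2 difference 1.58, adjusted p 0.0388). The summed smooth muscle markers were 1624 to 1839 RPKM in null and 800 to 1477 RPKM in flox hearts, a separation not seen at E9.5, and their part in the Myh11 difference was not tested.

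The cardiac chains did not pass the test at E10.5. Myh6 had 173, 205 and 254 RPKM in null hearts, against 251.8, 159 and 295 RPKM in flox hearts, a log2 difference of -0.13 (SE 0.257, limma adjusted p 0.787). Myh7 had 566, 301 and 272 RPKM in null hearts, against 285, 171 and 264 RPKM in flox hearts, a difference of 0.62 (SE 0.314, limma adjusted p 0.274). The first null heart held the high Myh7 value, the second lay just above the flox range and the third inside it. Without the first null heart the Myh7 difference was 0.29 (limma adjusted p 0.499). Without the 2 libraries of most erythroid RNA the Myh6 difference was -0.53 (limma adjusted p 0.182).

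Myh7b had 5.40, 3.89 and 6.33 RPKM in null hearts at E10.5, against 2.00, 3.97 and 2.24 RPKM in flox hearts. The second heart of each group lay in the range of the other group. The log2 difference was 0.84 (SE 0.269) and missed the threshold (limma adjusted p 0.135), whereas the authors' deposited table lists Myh7b with a log2 fold of -0.83 for control over null and an adjusted p of 0.0253. The authors' deposited table of this stage also lists Myh11, at -2.68 for control over null with an adjusted p of 8.15e-21. At E9.5 the authors' deposited table lists Myh6 at 0.67 with an adjusted p of 6.39e-07 and Myh11 at -2.44 with an adjusted p of 4.37e-48, and no other heavy chain gene is listed at either stage.

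Of the non-muscle chains, Myh9 had 60.0, 53.0 and 45.2 RPKM in null hearts at E10.5, against 31.5, 37.3 and 45.1 RPKM in flox hearts. The groups did not overlap but touched, and the log2 difference of 0.47 missed the threshold (SE 0.179, limma adjusted p 0.172). Myh10 had 84.5, 78.8 and 50.01 RPKM in null hearts, against 74.6, 76.3 and 83.9 RPKM in flox hearts. The low null value was that of the third library, and the difference was -0.17 with it (limma adjusted p 0.648) and 0.06 without it (limma adjusted p 0.800). Myh14 had 30, 20 and 219 reads in null and 24, 19 and 29 reads in flox libraries, so its mean of 0.752 RPKM in null against 0.207 RPKM in flox hearts came from the third null library, at 1.84 RPKM. Without that library the null mean of Myh14 was 0.208 RPKM. The 4 foregut and liver markers summed to 18.6, 1301 and 852 RPKM in the null libraries, against 2.08, 166 and 2.46 RPKM in the flox libraries, and their part in the Myh14 value was not tested.

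Myh3 had 6, 1 and 12 reads in null and 0, 0 and 0 reads in flox libraries at E10.5, and without the third null library 7 null reads of Myh3 remain. A count of 0 in the 3 flox libraries together allows up to 3 reads, a level of 0.00945 RPKM, for counting error only. Skeletal muscle precursor markers summed to 0.487 to 2.33 RPKM in null and 0.167 to 4.63 RPKM in flox hearts, so the highest marker sum was in the group with 0 reads of Myh3.

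**Figure D2:**
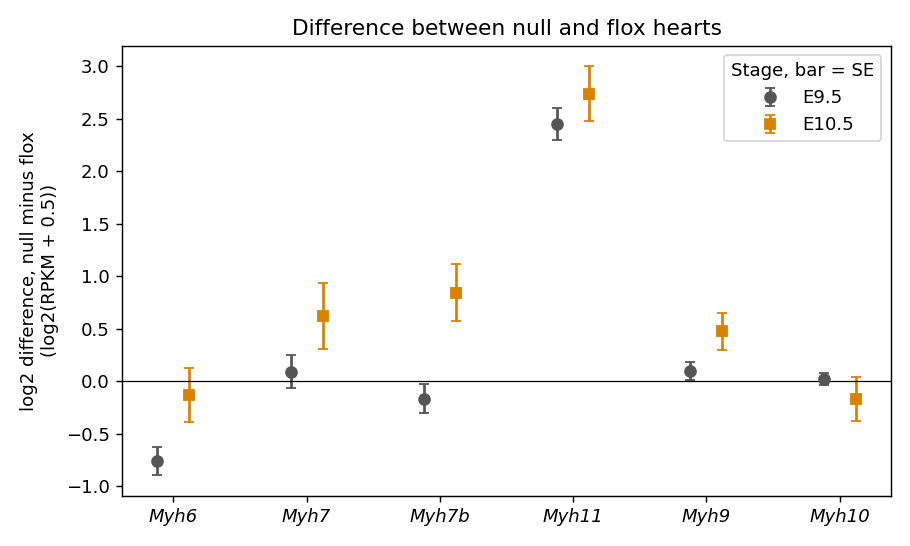
Log2 difference, null minus flox, of the 6 tested heavy chain genes on the scale of log2(RPKM + 0.5), with limma's SE, at E9.5 (grey circles) and E10.5 (orange squares). Myh11 stands at 2.45 and 2.74, Myh6 lies at -0.76 at E9.5 and -0.13 at E10.5, and Myh7b lies at -0.17 at E9.5 and 0.84 at E10.5.

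Whether the effect of the genotype changed between the stages was tested as an interaction over all 16 libraries, which called 3.82% of 13886 genes and none of the 6 chains. With voom on the recovered reads no chain was called either. Myh7b came closest, with a difference between the stages of 1.01 (SE 0.286, limma adjusted p 0.0565). It was called with the erythroid level or the sex of the library as a covariate (limma adjusted p 0.0341 and 0.0430), and also without the fourth null heart of E9.5 (1.08, adjusted p 0.0448) or the second null heart of E10.5 (1.19, adjusted p 0.0195). For Myh6 the value was 0.63 (SE 0.279, limma adjusted p 0.167), so the call at E9.5 and its absence at E10.5 do not show different effects. For Myh11 it was 0.29 (SE 0.292, limma adjusted p 0.554). Stage cannot be told apart from RNA input (300 ng for the later hearts and 200 ng for the earlier), or from the 2 deposited tables.

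Over the day between the stages, 4 of the 6 chains fell in flox hearts, in a comparison that called 43% of 13886 genes and 19.1% as lower at E10.5 (24% as higher). Myh7b fell by 1.33 on the log2 scale (limma adjusted p 0.000154), with 2.73 RPKM at E10.5 and 7.48 RPKM at E9.5 on average. Myh6 fell by 1.09 (limma adjusted p 0.000562), Myh7 by 0.82 (limma adjusted p 0.0126) and Myh9 by 0.41 (limma adjusted p 0.0157). Myh10 (-0.10, limma adjusted p 0.541) and Myh11 (-0.34, limma adjusted p 0.196) did not pass. The mean log2 level of the cardiomyocyte markers was also lower in flox hearts at E10.5 (7.62 to 8.26) than at E9.5 (8.71 to 8.93). With that level as a covariate only Myh7b was called, and with the erythroid level Myh6 and Myh7b were. Myh9 was not called without the first flox heart of E10.5 (limma adjusted p 0.109), nor Myh7 without the second (limma adjusted p 0.0880).

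Ratios within a library, taken after adding 0.5 RPKM to each gene, depend little on its scaling where both genes lie well above 0.5 RPKM. For genes near or below 0.5 RPKM the addition makes differences smaller. In all, 8 pairs were compared per stage by two-sided exact permutation tests, adjusted over the 8. At E9.5 the log2 ratio of Myh11 to Myh7 differed between null and flox hearts by 2.36, that to Myh9 by 2.35 and that to Myh10 by 2.42. None of the 3 overlapped between groups (exact permutation p 0.00794, which is the lowest value possible for 5 against 5 hearts, adjusted p 0.0212). For Myh6 to Myh7 the log2 ratio averaged -0.62 ± 0.435 in null and 0.23 ± 0.520 in flox hearts (SD, n = 5 each), with overlap. The difference of -0.85 missed the threshold after adjustment (exact permutation p 0.0317, adjusted p 0.0508). In each group the fourth heart was the lowest, at -1.28 in null and -0.64 in flox hearts. Between hearts of the same replicate number the ratio was always lower in the null heart. The labels do not say that the numbers pair the hearts, and the test did not use them. The other ratios, Myh14 to Myh9, Myh7b to Myh7, Myh10 to Myh9 and Myh3 to Myh7, differed by -0.28, -0.26, -0.07 and 0.003 and did not pass. Myh14 and Myh3 averaged less than the 0.5 RPKM added to each gene. The Myh3 ratio therefore mostly follows Myh7 and could not show a change of Myh3. At E10.5 3 against 3 hearts cannot go below an exact permutation p of 0.1, which the 3 Myh11 ratios (2.12, 2.26 and 2.91) and Myh10 to Myh9 (-0.65) reached with no overlap.

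As a share of the family's summed RPKM, the cardiac chains made up 83.3 ± 1.05% in null and 87.1 ± 1.23% in flox hearts at E9.5, and the non-muscle chains 15.7 ± 1.09% in null and 12.8 ± 1.21% in flox hearts (SD, n = 5 each). The smooth muscle chain made up 1.02 ± 0.117% in null and 0.124 ± 0.0524% in flox hearts, and the skeletal chains 0.00676% in null and 0.00215% in flox hearts. The sum itself was 892 ± 66.7 RPKM in null and 1057 ± 54.4 RPKM in flox hearts (SD, n = 5 each). None of these 5 measures overlapped between groups (exact permutation p 0.00794 each, adjusted p 0.00952 over 6 measures), but parts of 1 sum are not independent of each other. The skeletal share rested on few reads, 3 to 13 of Myh3 in null and 1 to 4 in flox libraries, with at most 2 of Myh8. It was also divided by a sum that was lower in null hearts. The RPKM of Myh3 itself overlapped between groups, and Myh3 was not called in the limma fit with no filter (adjusted p 0.159). Myh6 formed 39.6 ± 7.03% of the cardiac pair Myh6 and Myh7 in null and 54.0 ± 8.87% in flox hearts (SD, n = 5 each), with overlap (exact permutation p 0.0317, adjusted p 0.0317).

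At E10.5 only the Myh11 share of these 6 measures did not overlap between groups. Myh11 made up 1.22 ± 0.212% of the sum in null and 0.166 ± 0.0935% in flox hearts (SD, n = 3 each), with no overlap (exact permutation p 0.1, the smallest possible). The other measures overlapped: the sum was 729 ± 146 RPKM in null and 595 ± 129 RPKM in flox hearts, and Myh6 formed 37.4 ± 12.7% of the cardiac pair in null and 49.3 ± 3.08% in flox hearts (SD, n = 3 each).

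**Figure D3:**
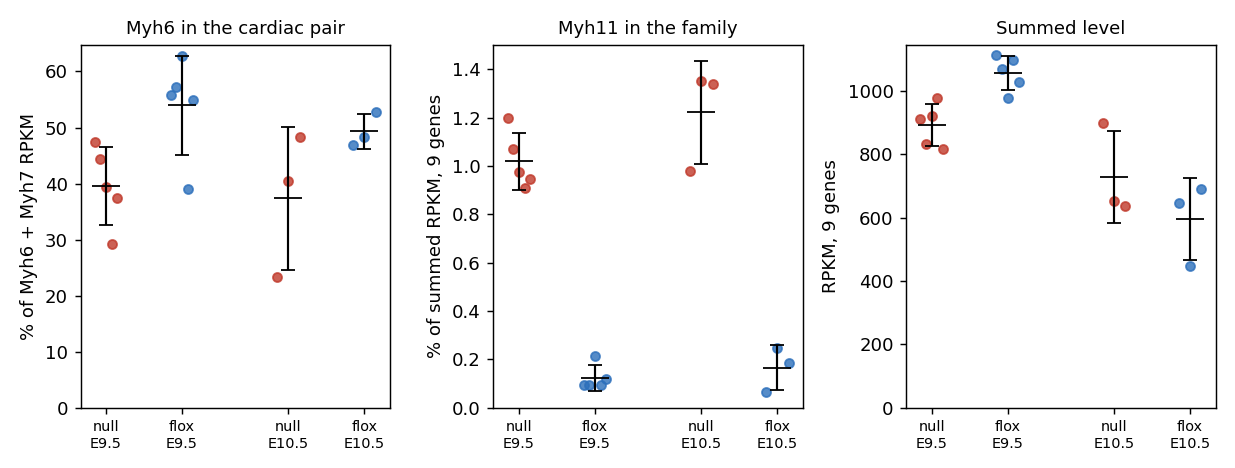
Composition of the heavy chain RNA in each null (red) and flox (blue) heart at E9.5 and E10.5, with mean and SD as bars: Myh6 as a percentage of Myh6 and Myh7 RPKM (left), Myh11 as a percentage of the summed RPKM of the 9 genes (centre) and that sum in RPKM (right). Myh11 takes 1.02% in null and 0.124% in flox hearts at E9.5 without overlap, and the Myh6 share overlaps between groups at both stages.

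Set against the mean log2 level of the 8 cardiomyocyte markers, a comparison chosen after the values were seen, the differences of Myh6 and Myh7 at E9.5 had opposite signs and did not pass. Myh6 averaged -0.37 ± 0.192 in null and 0.11 ± 0.279 in flox hearts relative to the markers (SD, n = 5 each), a difference of -0.48 (exact permutation p 0.0317, adjusted over 4 genes 0.0635). Myh7 averaged 0.26 ± 0.244 in null and -0.12 ± 0.246 in flox hearts (SD, n = 5 each), a difference of 0.38 (exact permutation p 0.0476, adjusted p 0.0635). Both overlapped between groups. Relative to the markers Myh11 differed by 2.73 at E9.5 (exact permutation p 0.00794, adjusted p 0.0317) and by 2.43 at E10.5. Myh6 relative to the markers averaged -0.62 ± 0.344 in null and -0.18 ± 0.197 in flox hearts at E10.5 (SD, n = 3 each), a difference of -0.44. Neither Myh11 nor Myh6 overlapped between groups there (exact permutation p 0.1, the smallest possible, adjusted p 0.2).

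Other parts of the myosin machine were read from a list of 52 partner and regulator genes, of which 47 were tested at each stage. At E9.5, 1 was called higher, 14 lower and 32 were not called, beside 6.87% of all tested genes higher and 10.3% lower, with a median log2 difference of -0.15 beside -0.04 over all genes. The cardiomyocyte markers, of which Myl7 and Ttn are also on this list, had a median of -0.28 at that stage, so a fall was not particular to these genes. Of 11 light chain genes 1 was called lower: Myl4, the atrial essential light chain that ventricles also carry in the embryo, averaged 1539 ± 307 RPKM in null and 2167 ± 235 RPKM in flox hearts (SD, n = 5 each; limma log2 difference -0.51, adjusted p 0.0265). Among 9 tested genes for light chain kinases and the myosin phosphatase, Mylk3, the cardiac light chain kinase, fell by 0.69 on the log2 scale and Ppp1r12b, a phosphatase targeting subunit, by 0.78, and Ppp1r12c rose by 0.20. Of 5 chaperone genes 1 was called: Smyd1, a muscle methyltransferase that acts in thick filament assembly, fell by 0.55.

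Of 7 tested thick filament and M-band genes 3 were called lower at E9.5 and none higher. Mybphl, which is atrial in the adult mouse, averaged 16.1 ± 3.83 RPKM in null and 34.9 ± 2.99 RPKM in flox hearts (SD, n = 5 each; limma log2 difference -1.11, adjusted p 0.000473). Mybpc3, the cardiac myosin-binding protein C, fell by 0.48 and Myom1, which crosslinks myosin at the M-band, fell by 0.33. Of 15 tested regulators of cardiac and smooth muscle myosin genes, 7 were called lower and none higher. Myocd, given above among the smooth muscle markers, is counted again in these 7. Nkx2-5, the cardiac homeobox factor, averaged 42.9 ± 11.1 RPKM in null and 117 ± 19.1 RPKM in flox hearts (SD, n = 5 each; limma log2 difference -1.45, adjusted p 0.000389). Hopx, a homeodomain protein that binds SRF, fell by 1.15, Srf by 0.43 and Mkl2, an SRF coactivator, by 0.23.

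At E10.5, 2 of the 47 were called higher, 1 lower and 44 were not called, beside 1.77% of all tested genes higher and 0.305% lower, with a median of -0.04 beside -0.03 over all genes. Mylk3 was again lower, at 29.5 ± 1.597 RPKM in null and 50.4 ± 6.91 RPKM in flox hearts (SD, n = 3 each; limma log2 difference -0.75, adjusted p 0.0457). Myl6, the essential light chain of smooth and non-muscle myosin, averaged 22.3 ± 4.50 RPKM in null and 10.9 ± 1.73 RPKM in flox hearts (SD, n = 3 each; limma log2 difference 0.99, adjusted p 0.0453). Mybph, a skeletal relative of Mybphl, rose by 1.11 (limma adjusted p 0.0253), with 3.38 ± 0.382 RPKM in null and 1.30 ± 0.125 RPKM in flox hearts (SD, n = 3 each).

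The antisense transcript Mhrt, which is read from the Myh7 locus in the opposite direction to Myh7, averaged 167 ± 82.6 RPKM in null and 204 ± 40.4 RPKM in flox hearts at E9.5 (SD, n = 5 each; limma log2 difference -0.43, adjusted p 0.393). At E10.5 it had 319, 101 and 213 RPKM in null hearts, against 81.0, 51.8 and 87.5 RPKM in flox hearts, with no overlap. The difference of 1.40 missed the threshold (SE 0.394, limma adjusted p 0.107), whereas the authors' deposited table lists it at -1.46 for control over null with an adjusted p of 0.000844. The reads behind the RPKM of Mhrt averaged 2119 per library, against a mean normalised count of 33.3 in the authors' deposited table, a ratio of 63.6. For the other genes listed there the ratio lay between 1.002 and 1.083 in the range from the 5th to the 95th percentile, so the 2 files did not count Mhrt alike, and its reads and those of Myh7 cannot be told apart. The rows of the 3 microRNA genes held at most 15 reads in any library of polyadenylated RNA and are too low to compare with their host genes.

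By correlation of log2(RPKM + 0.5) over the 16 libraries with 12734 other genes, the genes most like Myh11 were Tnnc2 (Pearson r = 0.978), Cpne6 (r = 0.975) and Vil1 (r = 0.975), and those most like Myh6 were Crip2 (r = 0.964), Rhot2 (r = 0.961) and Esrra (r = 0.958). The libraries share genotype groups, stage and depth, so these values are descriptions and carry no test.

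CHD4 binding was listed in 3 peak files of 84271, 60749 and 50232 peaks, which come from 2 biological replicates and are not 3 independent samples. Coordinates are those of mm10, and gene positions are RefSeq's on GRCm38, the same assembly. Of the 9 heavy chain genes 8 had a peak in their body or within 5 kb, all but Myh8, beside 93.6% of 13838 tested genes, and with peaks found in all 3 lists the same 8 of 9 had one, beside 70.3%. The presence of a peak is thus common among genes expressed in these hearts, and the genes differed in how much of them was covered. Peak scores are the authors' and their scale is not stated.

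Myh6 (chr14:54941921-54968017) was covered over 70.1%, 38.1% and 38.1% of its length in the 3 lists. The mean of 48.8% placed it at rank 53 of 13283 tested genes of at least 1 kb, whose median was 1.24% and whose 95th percentile was 14.4%. In and within 5 kb of Myh6 there were 29, 34 and 31 peaks, and 17 peaks of the first list were met in both others, 13 of them in the gene body. The peak of highest score lay deep in the gene (chr14:54944593-54947034), with scores of 651, 203 and 340. Cover was largest towards the 3′ end and went on past it, as the map of peaks over both genes shows.

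The neighbour Myh7 (chr14:54970684-54994626), of similar length and similar RNA level, was covered over 5.05%, 2.15% and 1.45%, so the pair differed by more than the lists did among themselves. Of the 8 cardiomyocyte markers 3 lay above that 95th percentile, Myl7 (mean 41.4%), Actc1 (24.5%) and Ttn (22.7%). The other 5, Nppa (36.1%, 0% and 0% in the 3 lists), Tnnt2 (mean 11.5%), Tnni1 (10.9%), Actn2 (8.74%) and Ryr2 (5.48%), lay below it. Among the other heavy chains the mean cover was 3.93% for Myh9, 3.90% for Myh7b, 3.804% for Myh3, 1.48% for Myh10, 1.14% for Myh14 and 0.674% for Myh11. The order of cover was not the order of RNA level: Myh7 and Myh6 overlapped in level in flox hearts, and Myh10, above Myh9 in level, was below it in cover.

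**Figure D4:**
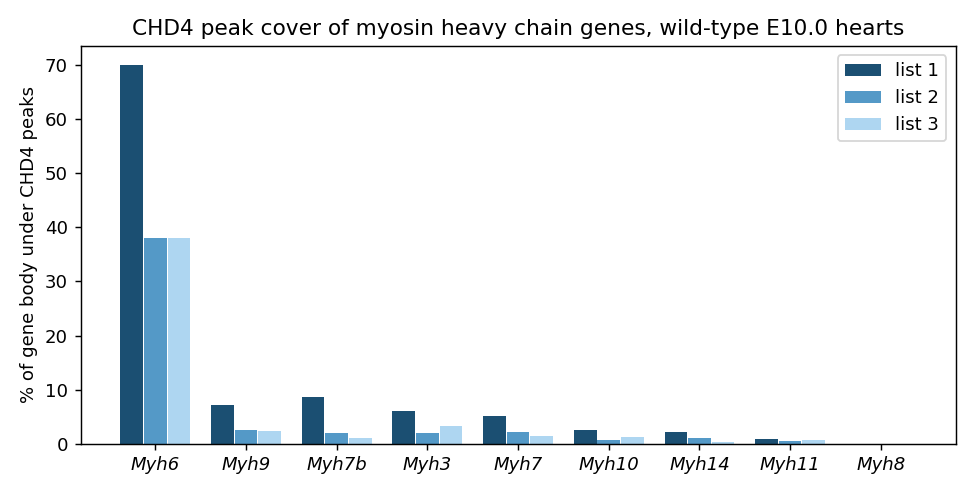
Percentage of each heavy chain gene body under CHD4 peaks in each of the 3 peak lists from wild-type E10.0 hearts, 1 bar per list. Myh6 reaches 70.1%, 38.1% and 38.1%, and the other 8 genes lie below 9% in every list.

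**Figure D5:**
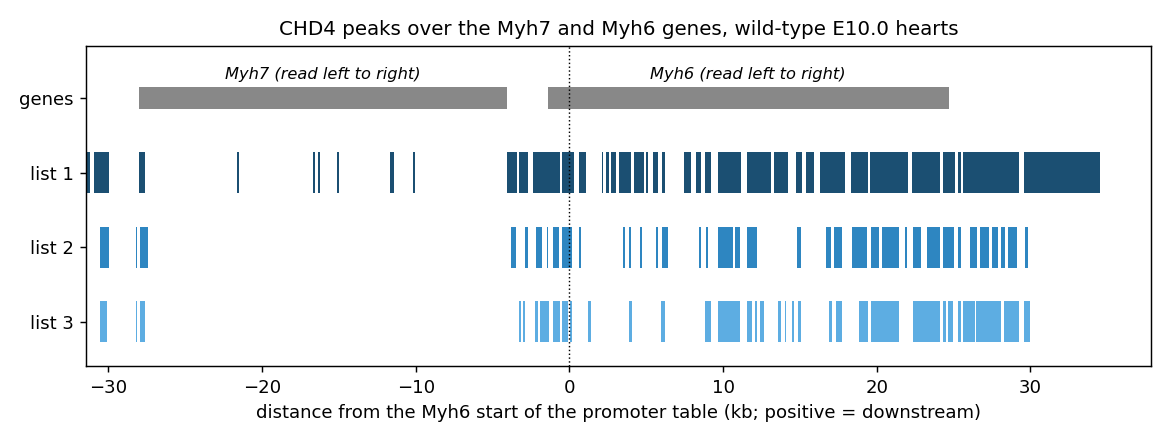
Map of CHD4 peaks (coloured blocks, 1 row per list) over Myh7 and Myh6 (grey bars), with the distance in kb from the Myh6 start used for its promoter, positive downstream; the grey bar of Myh6 begins before 0 because the annotated gene has an earlier start. Blocks fill much of Myh6 and its 3′ flank in all 3 lists, and Myh7 has few blocks between its ends.

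At the starts of the genes, a peak of all 3 lists lay over the Myh6 promoter printed above (chr14:54966307-54967097, scores 180, 96 and 98) and another just inside the start of Myh7 (chr14:54994254-54994616, scores 58, 69 and 80). Among the heavy chains with a promoter entry, the strongest promoter peak was that of Myh10 (chr11:68691279-68692184, scores 444, 284 and 248), followed by Myh9 (chr15:77842169-77842649, scores 265, 221 and 120). A peak within 1 kb of the start in all 3 lists was found for 59.9% of tested genes. Of the chains that changed at E9.5, Myh6 thus had a promoter peak and wide cover. Myh11 (chr16:14194527-14292188) had 2 peaks shared by all lists, both inside the gene, at chr16:14217302-14217532 (scores 28, 40 and 22) and chr16:14265562-14265983 (scores 65, 62 and 30). The first list alone had another at chr16:14291395-14291503 (score 25), close to the upper end of the gene coordinates. Myh11 has no promoter entry, so whether a peak lies at its start was not examined. Myh10 and Myh9, with the strongest promoter peaks, were not called in either comparison of null with flox hearts.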

How the data were processed

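The RPKM values are those the authors deposited, per kilobase of the deposited gene length and per 1000000 reads, in 1 table a stage whose headers call flox hearts WT and null hearts KO. Tools named in the submitters' processing notes are MACS2, DESeq2 1.6.3, Bowtie 1.2.0, HTSeq 0.6.2, SAMtools 1.6 and bedtools 2.25.0, with the build mm10. No source used here gives the strand setting of the counting. Multiplied by length, 100% of the RPKM values came out as whole reads (tolerance 0.01), which gives each library's depth. The authors' deposited tables of differences hold log2 fold changes of control over null, p-values, the mean signal per gene and a test score, for those genes whose adjusted p is 0.05 or less. The peak score is also as deposited by the authors. The design text calls the RNA libraries biological replicates. The ChIP input libraries were not analysed here.

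Values were fitted as log2(RPKM + 0.5) where a gene averaged 0.5 RPKM or more, by limma 3.58.1 in R 4.3.3 (lmFit, then eBayes with a trend), with two-sided tests, stages apart and without covariates. The log scale understates changes of genes near 0.5 RPKM. The difference between stages and the stage contrast in flox hearts came from 1 fit of 16 libraries. Single ratios and shares were compared by exact permutation of libraries. Lack of overlap between the groups of a gene is a description, and its share over all genes was not counted. The rest used Python 3.11.15 (pandas 2.3.3, numpy 2.4.6, statsmodels 0.14.6, scipy 1.17.1, matplotlib 3.10.9). The fit was tested on simulated data. Replicates were compared by chi-square of reads and none were alike within sampling noise. Other settings were the pseudocount, the filter, quantile normalization, scaling to a common median or without erythroid and the top 10 genes, voom on recovered reads, robust eBayes, a block by replicate number, marker levels as covariates and leaving out libraries. The cardiomyocyte and sex covariates, the libraries left out for marker levels and the ratio to cardiomyocyte markers were chosen after seeing the data. Genes, lists and tests were chosen with earlier results of these data known. All 9 members and Chd4 are named, with up to 4 called partners per list and stage and the 3 genes most like each called member. Seeds were read from mature sequences and motifs from promoters of RefSeq, where 8 of the 9 members, all but Myh11, have a promoter entry. An overlap of 1 base or more made a peak shared.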

Additional observations from a re-analysis of the deposited data

Results flagged for a closer look

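In groups of 5 hearts the highest or lowest value was compared with the spread of its group by Dixon's test, over 46 groups of values, of which chance alone flags about 1 in 20. The test marked 8 values, all at E9.5. Shares and ratios reuse the same genes, so the groups of values are not independent and the 8 cannot be set against that rate. Among flox hearts, replicate 3 had 2.11 RPKM of Myh11 while the others had 1.02 to 1.23 RPKM, and its Myh11 share of 0.215% stood above 0.0926% to 0.120% in the others. Flox replicate 1 had a cardiac share of 89.2% (others 86.3% to 87.0%) and a non-muscle share of 10.7% (others 12.9% to 13.5%). Flox replicate 5 had a log2 ratio of Myh14 to Myh9 of -6.31 (others -6.07 to -6.02). Among null hearts, replicate 1 had log2 ratios of Myh11 to Myh9 of -2.07 and of Myh11 to Myh10 of -2.85, above the others at -2.69 to -2.57 and -3.31 to -3.20. Null replicate 4 had a log2 ratio of Myh3 to Myh7 of -10.0 (others -9.57 to -9.46). With 0.5 RPKM added to each gene and Myh3 at 0.0449 RPKM, this value mostly follows Myh7. Myh7 was at 573 RPKM in that heart, the highest of its group.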

How the results depend on the processing

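The calls of Myh11 at both stages held under every setting run. The 2 members called at E9.5 became 1 with the erythroid and 1 with the cardiomyocyte level as a covariate, where Myh6 was lost, and stayed 2 without any 1 library. At E10.5 the count was 1 under every setting and without any 1 library. For the difference between stages 1 member, Myh7b, was called with the replicate block and with the erythroid or sex covariate, and 0 to 1 without any 1 library (1 without null replicate 4 of E9.5 or null replicate 2 of E10.5). In flox hearts over the day the 4 members called became 2 with the erythroid and 1 with the cardiomyocyte covariate, and 3 to 4 without any 1 library (Myh9 was lost without flox replicate 1 and Myh7 without flox replicate 2 of E10.5). With sign flips by replicate number as a block, 0 ratios and 0 shares could be called, since the smallest p is then 0.0625, and without any 1 library 3 to 4 ratios and 5 to 6 shares were called at E9.5 and 0 at E10.5. Same-numbered libraries correlated at 0.451, 0.0417, -0.136, 0.519 and 0.258 at E9.5 and at 0.0509, 0.106 and -0.0299 at E10.5, so not every pair passed 0.1 and the numbers were not taken to pair the hearts. At E9.5 numbers 1, 4 and 5 correlated best with their own number and 2 and 3 did not. With the block Myh7b at E9.5 had a limma adjusted p of 0.0523.

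Signs that turned all belonged to differences not called, apart from Myh7 over the day in flox hearts, at 0.19 with the cardiomyocyte covariate. Myh10 was -0.0317 (erythroid), -0.0172 (epicardial covariate) and -0.0135 (without libraries of low epicardial level) at E9.5, and 0.0268 (erythroid) and 0.0443 (without the libraries of most erythroid RNA) at E10.5. Over the day in flox hearts Myh10 was 0.0169 (erythroid). Myh6 at E10.5 was 0.005 (erythroid) and 0.0115 (epicardial), and Myh7 for the difference between stages was -0.23 (cardiomyocyte). With a pseudocount of 1 the log2 difference of Myh3 over Myh7 at E9.5 was -0.0421 and that of Myh14 over Myh9 at E10.5 was -0.0567. Without any 1 library the ranges that crossed 0 were -0.0142 to 0.0536 for Myh10 and -0.0094 to 0.208 for Myh7 at E9.5, -0.314 to 0.0615 for Myh10 and -0.389 to 0.0559 for Myh6 at E10.5, -0.337 to 0.0379 for Myh10 and -0.0061 to 0.474 for Myh11 between stages, -0.104 to 0.109 for Myh3 to Myh7 at E9.5, -0.58 to 0.45 for Myh14 to Myh9 and -0.11 to 0.71 for Myh7b to Myh7 at E10.5, and -0.725 to 3.82 points for the cardiac share at E10.5. The cause was not tested.

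Over all genes the 2342 calls at E9.5 became 70 (erythroid), 50 (cardiomyocyte), 1238 (sex), 3698 (block), 1349 (without low epicardial libraries) and 1537 (without null replicate 5). The 292 at E10.5 became 86 (erythroid), 188 (epicardial), 58 (cardiomyocyte), 79 (sex), 162 (no filter), 69 (without the most erythroid libraries) and 62 at the lowest without 1 library. The 531 between stages ranged over 0 (cardiomyocyte) to 1795 (without null replicate 2 of E10.5), and the 5976 in flox hearts fell to 506 (cardiomyocyte). Members near 0.5 RPKM or below rested on few reads, and 3 hearts a group limit E10.5. No paired analysis was possible for CHD4 peaks because the peak lists have no groups.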
